A study of Mus musculus with 48 samples.

Results

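The expression of 9 genes of glutamine and branched-chain amino acid handling was followed in mouse tibialis anterior muscle: *Glul*, *Slc38a2*, *Slc7a5*, *Slc3a2*, *Bcat2*, *Bckdha*, *Bckdhb*, *Bckdk* and *Gpt2*. They were chosen by name, for their function, with earlier results of these data known. All 9 were found among the 56748 genes of the deposited table and among the 15637 genes with enough reads to test. The mice were male and fell into 4 arms. The labels and the study's methods put their age at 39 to 55 weeks. The study's statement of limitations instead describes the mice used for RNA-seq as younger, and this could not be settled here. WT mice were given KPC cells, a mouse pancreatic cancer line, orthotopically into the pancreas, or saline in the controls. FoxP1SkmKO mice, which are Foxp1 fl/fl with an ACTA1-Cre that deletes Foxp1 in skeletal muscle fibers, were given the same injections. The sample labels call the WT mice C57BL/6J, whereas the series' design text describes them as floxed littermates without Cre, and the conflict could not be settled here. All mice were moved to constant darkness and muscle was taken at circadian times CT18, CT22, CT26, CT30, CT34 and CT38, from 2 mice per arm and time, giving 24 groups and 48 RNA-seq libraries.

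Skeletal muscle holds the largest pool of free glutamine in the body and is a main site of the first steps of leucine, isoleucine and valine breakdown. In the mitochondrion BCAT2 moves the amino group of these amino acids onto alpha-ketoglutarate, which makes glutamate, and the branched-chain keto acid dehydrogenase complex then oxidizes the carbon skeletons irreversibly. BCKDHA and BCKDHB are the subunits of its first enzyme, and BCKDK is the kinase that switches the complex off. Glutamate is turned into glutamine by glutamine synthetase, the product of *Glul*, or passes its amino group to pyruvate through GPT2 to make alanine, and muscle releases both into blood in fasting and wasting. SLC38A2 imports glutamine and other small neutral amino acids with sodium. SLC7A5 and SLC3A2 form a heterodimer, also known as LAT1 and CD98 heavy chain, that exchanges intracellular glutamine for leucine, and SLC3A2 partners other transporters and integrins as well.

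The 250 bases before the annotated start are shown for the 3 genes with the largest time-of-day amplitude and for *Slc3a2*, the gene called for the tumor. RefSeq held a promoter for 8 of the 9 genes (not *Slc7a5*), and each window shown was placed by an exact match to GRCm39. Both strands were searched for 7 motifs: the E-box CACGTG, the E-prime box CACGTT, the D-box TTATGTAA, the ROR element core AGGTCA, the forkhead motif TGTTTAC, the amino acid response element TGATGNAA and the cyclic AMP response core TGACG. Capitals mark a match to any of them, on either strand, and the rest is in lower case.
Glul (chr1:153775425-153775674, plus strand): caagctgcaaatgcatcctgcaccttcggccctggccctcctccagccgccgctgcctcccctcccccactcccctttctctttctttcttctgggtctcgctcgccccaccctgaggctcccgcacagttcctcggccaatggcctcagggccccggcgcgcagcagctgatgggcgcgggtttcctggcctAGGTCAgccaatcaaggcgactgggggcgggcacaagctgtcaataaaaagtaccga
Slc38a2 (chr15:96597610-96597859, minus strand): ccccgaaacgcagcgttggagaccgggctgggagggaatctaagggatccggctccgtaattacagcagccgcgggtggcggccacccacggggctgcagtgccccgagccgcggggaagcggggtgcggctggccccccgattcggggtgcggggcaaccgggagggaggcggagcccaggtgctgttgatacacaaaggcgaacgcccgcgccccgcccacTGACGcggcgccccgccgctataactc
Gpt2 (chr8:86218955-86219204, plus strand): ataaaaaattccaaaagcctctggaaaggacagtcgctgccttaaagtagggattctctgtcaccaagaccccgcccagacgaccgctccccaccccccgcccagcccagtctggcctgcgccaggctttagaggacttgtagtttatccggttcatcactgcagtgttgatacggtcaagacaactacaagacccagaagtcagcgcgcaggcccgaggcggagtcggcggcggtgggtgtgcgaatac
Slc3a2 (chr19:8691262-8691511, minus strand): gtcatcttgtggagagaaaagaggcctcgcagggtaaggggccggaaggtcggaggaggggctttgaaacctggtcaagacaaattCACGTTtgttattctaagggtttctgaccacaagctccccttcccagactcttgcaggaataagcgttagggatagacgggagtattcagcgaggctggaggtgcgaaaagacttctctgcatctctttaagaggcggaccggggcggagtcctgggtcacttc
The *Glul* window holds AGGTCA starting 57 bases before the start site, a motif present in 14% of the 32851 mouse promoter windows of this length. The *Slc38a2* window, at 72% GC, holds TGACG 27 bases before the start, found in 17.8% of windows. The *Slc3a2* window holds CACGTT 164 bases before the start, found in 3.85% of windows, and lies 9472 bases inside the deposited gene, so it belongs to an internal start. No motif searched was found in the *Gpt2* window. These letter matches are a description of the sequence and no binding was measured.

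In the deposited mm39 coordinates *Glul* (ENSMUSG00000026473) lies on the plus strand of chromosome 1 at chr1:153775690-153785469. The transporters are *Slc38a2* (ENSMUSG00000022462, chr15:96585273-96597611), *Slc7a5* (ENSMUSG00000040010, chr8:122607889-122634433) and *Slc3a2* (ENSMUSG00000010095, chr19:8684246-8700733), all on the minus strand. *Bcat2* (ENSMUSG00000030826, chr7:45219577-45239135, plus), *Bckdha* (ENSMUSG00000060376, chr7:25329371-25358406, minus) and *Bckdk* (ENSMUSG00000030802, chr7:127503254-127509393, plus) share chromosome 7. *Bckdhb* (ENSMUSG00000032263) lies at chr9:83807198-84006293 and *Gpt2* (ENSMUSG00000031700) at chr8:86219205-86254189, both on the plus strand.

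The libraries held 14480867 to 20787784 gene-assigned reads. *Foxp1* itself was low, at 0.430 to 0.971 FPKM (fragments counted, corrected for gene length and library depth) in WT control muscle and 0.430 to 0.642 FPKM in FoxP1SkmKO control muscle. The genotype difference in *Foxp1* was -0.11 on the log2 scale in controls (adjusted p = 0.459) and -0.20 with tumor (adjusted p = 0.246), and a gene-level count cannot separate the deleted exon. Median levels of the 8 muscle fiber markers ran from 0.412 FPKM for *Myh7* to 23400 FPKM for *Acta1*. The WT libraries at CT26 stood apart, since 1121 genes differed between KPC and control there and 0 to 4 at the other WT times. The rhythm calls over all libraries, the FPKM fits within arms and the *Slc3a2* tumor difference are therefore also given without CT26. Folds and ranges at CT26, and the edgeR rhythm calls within arms, are given only with it.

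The 9 genes spanned a wide range of length-corrected levels. *Gpt2* (64.7 ± 7.82 FPKM, SD, n = 48), *Glul* (59.3 ± 29.0 FPKM) and *Bckdk* (57.0 ± 3.80 FPKM) were the most abundant, and their ranges over libraries overlapped. *Bckdha* followed at 29.1 ± 3.51 FPKM. *Bcat2* (15.9 ± 1.64 FPKM), *Slc38a2* (15.4 ± 3.40 FPKM) and *Bckdhb* (14.5 ± 1.72 FPKM) lay within 1 SD of each other. The lowest *Bckdha* library (23.1 FPKM) was above the highest *Bckdhb* library (18.2 FPKM), although both encode subunits of the same enzyme. *Slc3a2* had 8.73 ± 1.08 FPKM and *Slc7a5*, its partner, 0.618 ± 0.202 FPKM, which came from only 21 to 88 reads per library. *Glul* was the most variable, its highest library being 6.17 times its lowest, and *Bckdk* the least, at 1.35 times. Library strand is not stated, so reads from overlapping genes cannot be told apart. *Glul*, *Bcat2*, *Bckdha* and *Bckdhb* have such neighbors, each of which averaged at most 1.08 FPKM.

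**Figure D1:**
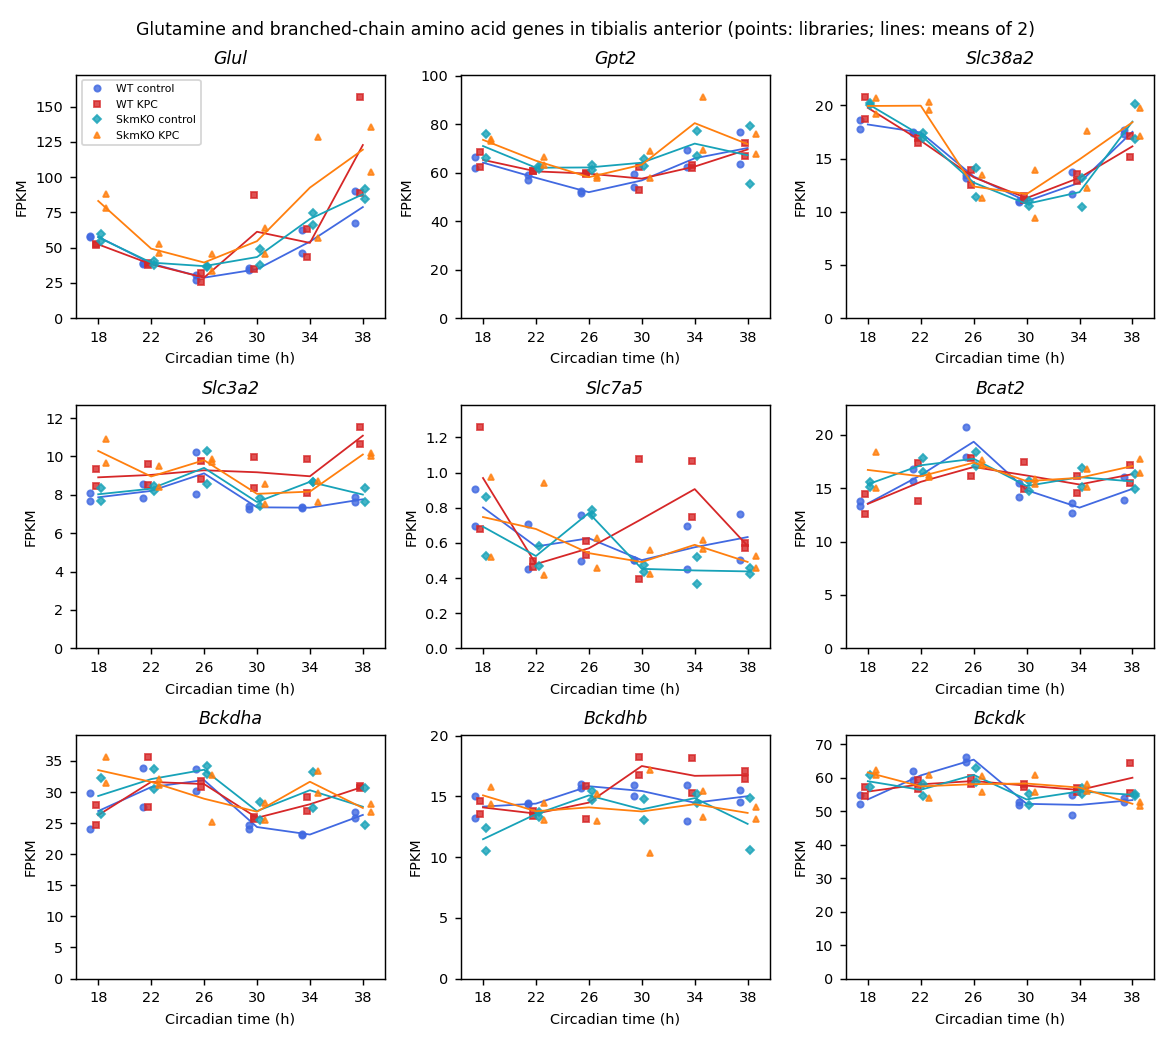
FPKM of the 9 genes (vertical axes, from 0) against circadian time in hours (horizontal axes) in WT and FoxP1SkmKO (written SkmKO) muscle with and without KPC tumor. Points are libraries, set slightly apart sideways, and lines join the means of 2 mice. *Glul* and *Slc38a2* swing with time in all 4 arms, *Glul* from a low at CT26 to a high at CT38 and *Slc38a2* from a high at CT18 to a low at CT30, except that in FoxP1SkmKO KPC muscle its CT22 mean was the highest.

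Time of day was the variable with which these genes changed most. A sinusoid with a 24 h period was fitted to all 48 libraries around the mean of each arm with edgeR, and 6 of the 9 genes passed an adjusted p of 0.05, against 39.9% of all genes tested (6232 of 15637). The median log2 amplitude of the 9 genes was 0.11, as was that of all genes tested, so the genes as a group did not stand out in amplitude. Called genes were *Glul*, *Slc38a2* and *Gpt2*, with log2 amplitudes of 0.71, 0.41 and 0.15, and *Bckdha*, *Bcat2* and *Bckdk*, with amplitudes of 0.11, 0.086 and 0.062. *Slc3a2* (adjusted p = 0.214), *Bckdhb* (adjusted p = 0.0906) and *Slc7a5* (adjusted p = 0.414) were not called. A test of any difference among the 6 times, with no shape assumed, called 40.6% of all genes and *Slc3a2* among them (adjusted p = 0.0135). Summed markers of other cell types also moved with time over all arms. The median sum of 4 fibroblast markers was 53.9 FPKM at CT18 and 21.9 FPKM at CT34. For 6 macrophage markers it was 29.0 FPKM at CT22 and 13.4 FPKM at CT34, and for 6 endothelial markers 76.8 and 56.0 FPKM. For 6 adipocyte markers it was 23.5 FPKM at CT18 and 33.3 FPKM at CT30. The part of tissue makeup in the rhythms was not tested.

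*Glul*, which makes glutamine, had the largest swing. In WT control muscle its libraries held 57.5 and 58.0 FPKM at CT18, 38.6 and 38.9 at CT22, 27.1 and 30.3 at CT26, 33.9 and 35.4 at CT30, 46.2 and 62.3 at CT34, and 67.6 and 90.0 at CT38. WT KPC libraries held 51.7 and 52.9, 37.7 and 38.9, 25.5 and 32.0, 35.1 and 87.5, 43.6 and 63.2, and 88.5 and 157 FPKM at the same times. The WT pairs lay closer to each other at CT18 and CT22 than at CT34 and CT38, and in KPC muscle the CT30 pair lay furthest apart in proportion. FoxP1SkmKO control libraries held 55.1 and 59.6, 38.0 and 40.8, 36.6 and 37.2, 37.9 and 48.8, 65.9 and 74.8, and 84.3 and 91.5 FPKM. FoxP1SkmKO KPC libraries held 78.3 and 87.9, 45.9 and 52.7, 33.5 and 45.5, 45.4 and 63.8, 56.6 and 129, and 104 and 135 FPKM. In every arm both CT38 libraries lay above both CT26 libraries, and the CT38 mean was 2.74, 4.27, 2.38 and 3.03 times the CT26 mean in WT control, WT KPC, FoxP1SkmKO control and FoxP1SkmKO KPC muscle. The fit over all libraries gave a peak at CT37.5 and a peak-to-trough fold of 2.69 (edgeR, adjusted p = 2.08e-10).

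*Slc38a2*, the glutamine importer, peaked later than *Glul*. Over the 8 libraries of each time, it ranged from 17.7 to 20.8 FPKM at CT18 (median 19.6), from 16.5 to 20.3 at CT22 (17.4), from 11.3 to 14.1 at CT26 (13.3), from 9.42 to 13.9 at CT30 (11.0), from 10.5 to 17.6 at CT34 (13.0) and from 15.2 to 20.1 at CT38 (17.2). No CT30 library reached the lowest CT18 library. WT control pairs were 17.7 and 18.7 FPKM at CT18 and 10.9 and 11.0 FPKM at CT30, while the WT KPC pairs were 18.7 and 20.8, and 11.1 and 11.5. The FoxP1SkmKO pairs were 20.0 and 20.3 against 10.5 and 11.0 FPKM in controls, and 19.2 and 20.7 against 9.42 and 13.9 FPKM with tumor. The fitted peak was at CT42.0, equivalent to CT18 on a 24 h cycle, with a peak-to-trough fold of 1.77 (edgeR, adjusted p = 2.44e-12).

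*Gpt2*, the mitochondrial alanine aminotransferase, peaked at nearly the same fitted time as *Glul*, with a smaller swing. WT control libraries held 51.5 and 52.5 FPKM at CT26 and 63.5 and 77.0 FPKM at CT38, without overlap. Over all arms the 8 CT26 libraries ran from 51.5 to 63.4 FPKM (median 59.0) and the 8 CT38 libraries from 55.2 to 79.3 FPKM (median 70.1), so these overlapped, through a FoxP1SkmKO control mouse at 55.2 FPKM. The fitted peak was at CT37.8, with a peak-to-trough fold of 1.23 (edgeR, adjusted p = 8.39e-05).

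The branched-chain amino acid enzymes peaked at other times, and the folds were small. *Bckdha* peaked at CT22.3 (fold 1.16, adjusted p = 0.00778), *Bckdk* at CT24.0 (fold 1.09, adjusted p = 0.00596) and *Bcat2* at CT25.7 (fold 1.13, adjusted p = 0.00855). *Bcat2* ranged from 16.1 to 20.7 FPKM at CT26 (median 17.7) and from 12.6 to 18.4 FPKM at CT18 (median 14.7), so the times overlapped. The calls for these 3 genes each rested on a single time: *Bckdha* lost its call without CT22 (adjusted p = 0.0994), and *Bcat2* (adjusted p = 0.714) and *Bckdk* (adjusted p = 0.150) lost theirs without CT26. With CT26 left out, *Glul*, *Slc38a2*, *Gpt2* and *Bckdha* kept their calls. *Bckdhb* was fitted with an amplitude of 0.085 and was called once a single library, the FoxP1SkmKO KPC mouse with 10.3 FPKM at CT30, was left out (adjusted p = 0.00911).

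Within each arm a sinusoid was fitted to the 12 FPKM values of a gene by least squares, and an F test with an unadjusted p of 0.01 as threshold was read. In WT control muscle 4 of 9 genes passed, where 4.92% of all genes did: *Slc38a2* (p = 1.68e-06), *Glul* (p = 0.000204), *Gpt2* (p = 0.00199) and *Bckdk* (p = 0.00926, n = 12 libraries). In WT KPC muscle 2 genes passed (4.22% of all genes), *Slc38a2* (p = 1.52e-05) and *Bckdhb* (p = 0.0085, n = 12). *Slc38a2* and *Glul* passed in FoxP1SkmKO muscle both in controls (4.07% of all genes, p = 3.50e-05 and 4.29e-05) and with tumor (2.63% of all genes, p = 0.00208 and 0.00374, n = 12 each). *Glul* missed the threshold in WT KPC muscle (p = 0.0731, n = 12), although its amplitude of 33.1 FPKM, or 55.7% of its mean, was above the 23.2 FPKM, or 47.6%, of WT controls. After adjustment over all genes 2, 1, 2 and 0 of the 9 passed in WT control, WT KPC, FoxP1SkmKO control and FoxP1SkmKO KPC muscle, where 0.551%, 0.475%, 0.414% and 0.116% of all genes did. On counts with edgeR and an adjusted p of 0.05, 6, 2, 2 and 3 of the 9 genes were called in WT control, WT KPC, FoxP1SkmKO control and FoxP1SkmKO KPC muscle, against 18.4%, 11.2%, 8.27% and 6.93% of all genes tested. *Glul* and *Slc38a2* were called in all 4, *Glul* in WT KPC muscle with a log2 amplitude of 0.77 (adjusted p = 0.000211). The amplitude of *Slc38a2* was 25.9% of its mean in both WT arms, 32.8% in FoxP1SkmKO controls and 28.5% with tumor. Leaving out single libraries took the call from *Bckdhb* in WT KPC muscle with any of 9 of the 12, from *Bckdk* in WT controls with any of 8, and from *Glul* in FoxP1SkmKO KPC muscle with any of 2. With the CT26 libraries left out, a choice made after seeing the data, *Bckdk* (p = 0.0485) and *Gpt2* (p = 0.0326) no longer passed in WT controls, *Bckdhb* (p = 0.0123) in WT KPC muscle, or *Glul* (p = 0.0260) in FoxP1SkmKO KPC muscle (n = 10 each).

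Whether the rhythms differed between tumor and control was tested directly. Of the 9 genes 0 passed the test of the difference in rhythm after adjustment in WT or in FoxP1SkmKO muscle, where 0% of all genes did. At an unadjusted p of 0.05 the FPKM fit gave *Bckdk* and *Bckdhb* in WT and 0 genes in FoxP1SkmKO muscle, where 5.07% and 5.09% of all genes passed. *Bckdk*, the kinase of the dehydrogenase complex, was at 64.7 and 66.2 FPKM at CT26 in WT controls, at 59.3 and 62.1 at CT22 and from 48.9 to 55.0 at the other times. WT KPC libraries held 58.1 and 59.9 FPKM at CT26 and from 54.5 to 64.5 FPKM over all times, with no time standing apart. Its fitted amplitude was 6.04 FPKM in WT controls and 0.250 FPKM in WT KPC muscle (difference p = 0.0226, adjusted p = 0.752, n = 24). Without CT26 the adjusted p was 0.890. With edgeR on counts 0 of 9 genes were called in WT muscle, against 0.384% of all genes tested, and *Bckdk* had an adjusted p of 0.168. The same fit called 0 of 9 in FoxP1SkmKO muscle, against 0.0064%, and 3 and 1 of the 9 had an unadjusted p under 0.05 in WT and FoxP1SkmKO muscle.

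**Figure D2:**
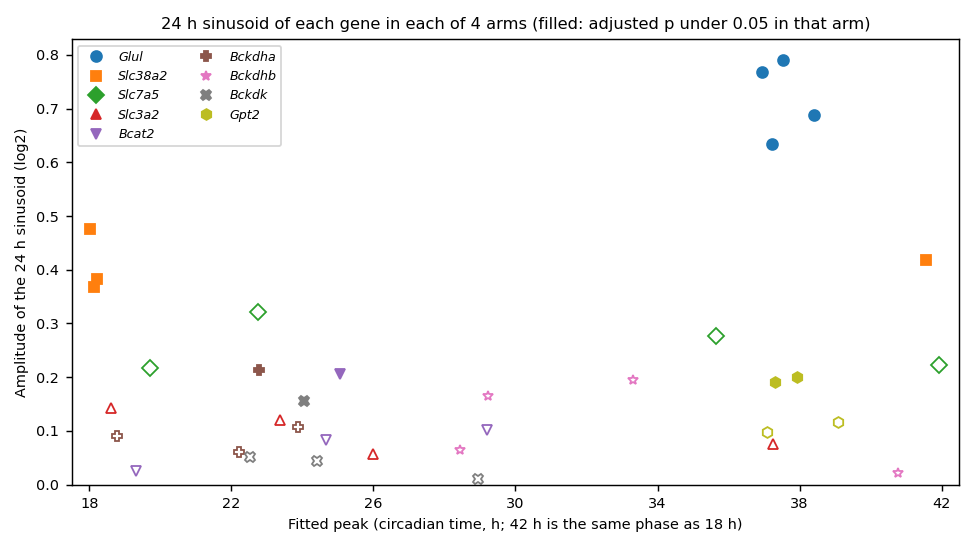
Log2 amplitude of the 24 h sinusoid (vertical axis) against fitted peak in hours of circadian time (horizontal axis) for the 9 genes in each of the 4 arms, from edgeR. Filled points passed an adjusted p of 0.05 in that arm. *Glul* lies near CT37 to CT38 with amplitudes of 0.63 to 0.79, and *Slc38a2* near CT18, or CT42, with 0.37 to 0.48, while the other genes have amplitudes up to 0.32.

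Averaged over the 6 times, a single gene of the 9 differed with the KPC tumor. *Slc3a2*, the heavy chain of the leucine exchanger, was higher in WT KPC than in WT control muscle (edgeR, log2 difference 0.24 ± 0.047 SE, 95% interval 0.15 to 0.34, a fold of 1.18, adjusted p = 0.00475). This is 1 call of 9, where 1.79% of all genes tested were called in either direction. WT control libraries held 7.66 and 8.09 FPKM at CT18, 7.86 and 8.55 at CT22, 8.02 and 10.2 at CT26, 7.27 and 7.43 at CT30, 7.31 and 7.35 at CT34, and 7.64 and 7.90 at CT38. WT KPC libraries held 8.47 and 9.36, 8.49 and 9.59, 8.81 and 9.76, 8.36 and 10.0, 8.09 and 9.85, and 10.6 and 11.5 FPKM at those times. All 12 KPC libraries lay above the WT control median of 7.76 FPKM, and the KPC pair lay wholly above the control pair at CT18, CT30, CT34 and CT38. At CT22 and CT26 the pairs overlapped, with a CT26 control at 10.2 FPKM above both KPC mice. Leaving out the libraries of CT38 took the call away (log2 difference 0.19, adjusted p = 0.0515), while without the libraries of CT26 it was kept (0.29, adjusted p = 0.00225).

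In FoxP1SkmKO muscle the same comparison of *Slc3a2* gave a log2 difference of 0.14 (95% interval 0.048 to 0.24) and was not called (edgeR, adjusted p = 0.157). FoxP1SkmKO control libraries held 7.68 and 8.38 FPKM at CT18, 8.18 and 8.46 at CT22, 8.54 and 10.3 at CT26, 7.42 and 7.83 at CT30, 8.66 and 8.69 at CT34, and 7.65 and 8.38 at CT38. With tumor they held 9.68 and 10.9, 8.39 and 9.53, 9.72 and 9.89, 7.52 and 8.59, 7.61 and 8.73, and 10.0 and 10.2 FPKM. Of the 12 tumor libraries 10 lay above the control median of 8.38 FPKM, and the pairs separated at CT18 and CT38. The FoxP1SkmKO difference minus the WT difference was -0.10 (95% interval -0.24 to 0.033, adjusted p = 0.838), so a smaller change of *Slc3a2* in FoxP1SkmKO muscle was not shown.

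**Figure D3:**
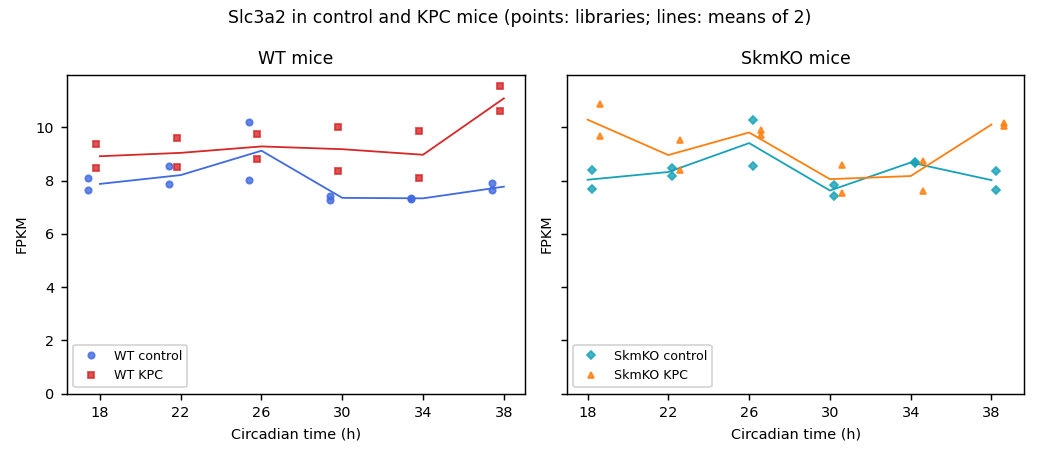
*Slc3a2* in FPKM (vertical axis, from 0) against circadian time in hours, in WT and in FoxP1SkmKO (SkmKO) muscle, for control and KPC mice. Points are libraries and lines join the means of 2 mice. In WT muscle the KPC points at CT38, 10.6 and 11.5 FPKM, stand above the controls at 7.64 and 7.90 FPKM.

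*Slc3a2* is also expressed by leukocytes, and the makeup of the tissue can move a bulk value. Fewer cells of a type and less RNA per cell cannot be told apart in these libraries. The summed level of 4 neutrophil markers was 0 to 1.11 FPKM in WT controls (median 0.369) and 0.466 to 2.83 FPKM in WT KPC muscle (median 1.41). In FoxP1SkmKO muscle it was 0 to 2.18 (median 0.273) and 0.118 to 14.8 FPKM (median 1.06). Of these markers *Ly6g* was at 0 in 45 of 48 libraries, *Cxcr2* in 23, *S100a8* in 13 and *S100a9* in 5. The summed level of 6 macrophage markers, none at 0 in any library, was 10.4 to 33.7 FPKM in WT controls (median 20.8) and 14.0 to 56.4 FPKM in WT KPC muscle (median 25.3). The 4 fibroblast markers summed to 22.9 to 75.4 FPKM (median 45.5) in WT controls and 14.5 to 62.9 FPKM (median 28.0) in WT KPC muscle. In FoxP1SkmKO muscle the median macrophage sum was 22.4 FPKM in controls and 23.4 FPKM with tumor, and the median fibroblast sum 40.5 and 23.3 FPKM. The 6 endothelial markers had median sums of 73.5 FPKM in WT controls and 63.3 FPKM in WT KPC muscle. In FoxP1SkmKO muscle these were 66.6 and 62.7 FPKM. The part of these cell types in the *Slc3a2* difference was not tested.

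The other 8 genes had point estimates above 0 in both genotypes, and none was called in either. In WT muscle these ran from 0.0023 for *Slc38a2* (95% interval -0.11 to 0.12) to 0.21 for *Glul* (95% interval -0.031 to 0.46, adjusted p = 0.413). In FoxP1SkmKO muscle 0 of 9 genes were called, against 0.428% of all genes tested, while 2 had an unadjusted p under 0.05 and DESeq2 called 0. Of them *Glul* had the largest difference, 0.36 (95% interval 0.11 to 0.60, unadjusted p = 0.0053, adjusted p = 0.168). *Glul* libraries of FoxP1SkmKO muscle ran from 36.6 to 91.5 FPKM in controls (median 51.9) and from 33.5 to 135 FPKM with tumor (median 60.2), so the arms overlapped. The median log2 difference of the 9 genes was 0.053 in WT and 0.060 in FoxP1SkmKO muscle, and that of all genes tested was 0.0016 and 0.0048. *Slc7a5*, the light chain that pairs with SLC3A2, was 0.16 in WT (95% interval -0.17 to 0.49), an interval wide enough to hold the *Slc3a2* difference. *Bcat2*, *Bckdhb*, *Bckdk* and *Gpt2* lay between 0.035 and 0.053 in WT muscle, with upper limits of at most 0.18, and *Bckdha* at 0.093 (95% interval -0.018 to 0.20). *Bckdk* in WT KPC muscle lay above the control median in 12 of 12 libraries, yet none was above the highest control. Tested as the difference between genotypes, 0 of 9 genes were called, where 0% of all genes were, 0 of 9 had an unadjusted p under 0.05, and DESeq2 called 0.

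**Figure D4:**
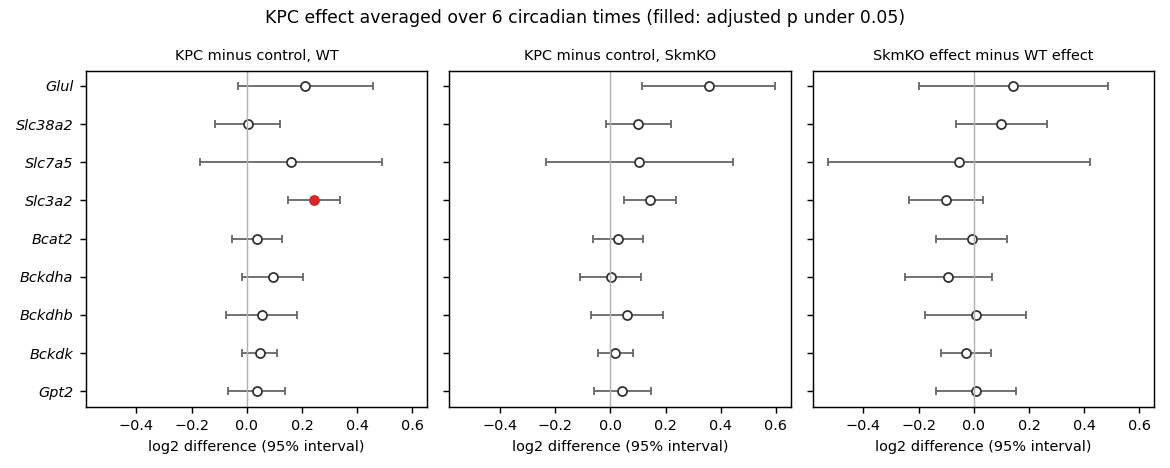
Log2 difference of KPC against control muscle (horizontal axes) with its 95% interval for the 9 genes in WT, in FoxP1SkmKO (SkmKO), and as FoxP1SkmKO minus WT, from edgeR averaged over 6 times. Filled points passed an adjusted p of 0.05. Only *Slc3a2* in WT muscle, at 0.24, is filled.

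At single times, with 2 mice against 2, 0 of the 54 gene and time pairs were called in WT muscle, where 0% of all genes were called at CT18, CT22 and CT34, 7.17% at CT26, 0.0064% at CT30 and 0.0256% at CT38. In FoxP1SkmKO muscle 0 of 54 were called, where the shares were 0.0192% at CT18, 0.0384% at CT26, 0.0064% at CT38 and 0% at the other times. At an unadjusted p of 0.05, 9 of the 54 pairs passed in WT and 4 in FoxP1SkmKO muscle. The pairs are not independent, and the share of all genes at that threshold is not given here, so no excess is claimed. *Slc3a2* at CT38 in WT muscle had the smallest adjusted p, with a log2 difference of 0.51 (95% interval 0.28 to 0.75, a fold of 1.43, adjusted p = 0.0964), and DESeq2 on all libraries called it (adjusted p = 0.0336). In FoxP1SkmKO muscle *Slc3a2* at CT18 had the smallest, with a difference of 0.37 (unadjusted p = 0.00276, adjusted p = 0.140). DESeq2 on the 4 libraries of each comparison called *Glul* at CT18 in FoxP1SkmKO muscle (adjusted p = 0.000376), where KPC libraries held 78.3 and 87.9 FPKM and controls 55.1 and 59.6 FPKM. For the same comparison edgeR gave 0.54 (95% interval -0.049 to 1.14, adjusted p = 0.413), and DESeq2 on all libraries did not call it. *Glul* in WT muscle at CT30 gave 0.82 (unadjusted p = 0.0088), and this rested on a single KPC mouse at 87.5 FPKM beside 35.1 FPKM in the other and 33.9 and 35.4 FPKM in the controls. The difference was 0.015 without that mouse. *Slc3a2* at CT26, the time with the most calls over all genes, was 0.019 in WT muscle.

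Genotype was compared within controls and within KPC mice. In controls 0 of the 9 genes were called, against 3.44% of all genes tested, and in KPC mice 0 of 9, against 0.32%. DESeq2 called 0 in both, and 3 of the 9 had an unadjusted p under 0.05 in each. In controls the log2 difference of FoxP1SkmKO against WT was 0.14 for *Bckdha* (adjusted p = 0.155), 0.12 for *Gpt2* (adjusted p = 0.196) and -0.14 for *Bckdhb* (adjusted p = 0.256), so the point estimates of the dehydrogenase subunits had opposite signs. *Bckdhb* libraries ran from 13.0 to 16.0 FPKM in WT controls (median 15.0) and from 10.5 to 15.5 FPKM in FoxP1SkmKO controls (median 14.1). *Bckdha* ran from 23.1 to 33.9 FPKM (median 26.3) and from 24.7 to 34.2 FPKM (median 30.5). Both genes overlapped widely between the genotypes. In KPC mice *Glul* was 0.35 (adjusted p = 0.229), *Gpt2* 0.13 (adjusted p = 0.318) and *Bckdhb* -0.13 (adjusted p = 0.453).

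The genes were then compared by their pattern over the 24 group means of log2 CPM, which share libraries and time points and so are a description only. Among the 9, *Glul* and *Gpt2* were most alike (r = 0.81), followed by *Bckdha* with *Bckdk* (r = 0.76) and *Bcat2* with *Bckdha* (r = 0.72), and *Slc38a2* and *Bckdhb* were the least alike (r = -0.44). Outside the set, *Glul* was nearest to *Prodh*, proline dehydrogenase (r = 0.94), *Plin4*, a lipid droplet protein (r = 0.93), and *Slc7a2*, a cationic amino acid transporter (r = 0.91). *Slc38a2* was nearest to the clock repressors *Nfil3* and *Cry1* (r = 0.92 each), followed by *Ppp1r3c* (r = 0.89). *Bcat2* and *Bckdha* were both nearest to *Acads*, short-chain acyl-CoA dehydrogenase (r = 0.90 and 0.83). *Slc3a2* was nearest to *Fam110d* (r = 0.87), the interleukin 4 receptor *Il4ra* (r = 0.87) and *Lrg1*, a secreted protein of the acute phase (r = 0.86). *Gpt2* was also near *Plin4* (r = 0.84).

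The wider pathway was read from the same fits, in which 1.79% of all genes were called for the tumor in WT muscle, 3.44% for genotype in controls and 39.9% for rhythm. Of 22 further genes of branched-chain amino acid breakdown, *Acadsb*, the short and branched-chain acyl-CoA dehydrogenase, was higher in WT KPC muscle (log2 difference 0.18, edgeR adjusted p = 0.0431). The median of the 22 genes was 0.0023, and 13 of the 22 passed the rhythm test that 39.9% of all genes passed. Of 11 tested genes of glutamine, glutamate and alanine metabolism, *Gpt*, the cytosolic counterpart of *Gpt2*, was lower in WT KPC muscle (-0.19, adjusted p = 0.0462), and 0 of 11 passed the rhythm test in edgeR (2 had an unadjusted p under 0.05). Of 18 tested amino acid transporters 0 were called for the tumor in WT muscle (0 had an unadjusted p under 0.05) and 9 were rhythmic, with a median log2 amplitude of 0.19, and *Slc38a10* was higher in FoxP1SkmKO than in WT controls (0.22, adjusted p = 0.0197). Of 16 leucine and amino acid sensing genes 6 were rhythmic, near the share over all genes, and in FoxP1SkmKO controls *Castor2*, an arginine sensor paralog, was higher (0.31, adjusted p = 0.00341) and *Rragd*, a Rag GTPase, was lower (-0.15, adjusted p = 0.0230).

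Genes of the ATF4 response and of the glucocorticoid and KLF15 list were read in the same way. The shares over all genes were again 1.79% for the tumor in WT muscle, 3.44% for genotype in controls and 39.9% for rhythm. Of 12 genes of the ATF4 amino acid response, *Chac1*, which degrades glutathione, was higher in WT KPC muscle (1.08, adjusted p = 0.0257), while the median was 0.046 and 7 were rhythmic. Of 12 tested glucocorticoid and KLF15 genes, *Klf15*, a transcription factor that induces branched-chain amino acid catabolism, was higher in WT KPC muscle (0.32, adjusted p = 0.0188), and 11 of 12 were rhythmic, with a median log2 amplitude of 0.23 beside 0.11 over all genes. In controls *Pdk4*, the pyruvate dehydrogenase kinase (0.76, adjusted p = 0.0184), and *Cdkn1a*, a cell cycle inhibitor (0.79, adjusted p = 0.0219), were higher in FoxP1SkmKO muscle. In FoxP1SkmKO muscle edgeR called 0 genes of these 6 lists for the tumor, against 0.428% of all genes tested. By list, in the order above, 1, 0, 3, 0, 4 and 5 genes had an unadjusted p under 0.05 in edgeR. In that comparison *Chac1* was 0.88 (edgeR adjusted p = 0.109) and *Klf15* 0.22 (adjusted p = 0.170). *Gpt* was -0.096 (adjusted p = 0.446) and *Acadsb* 0.039 (adjusted p = 0.812). None of them was called for the difference between genotypes (edgeR adjusted p 0.764 to 0.951), so a weaker tumor effect in FoxP1SkmKO muscle was not shown. Of the WT tumor calls, *Acadsb* was lost when any of 31 single libraries was left out, *Gpt* with any of 21, *Chac1* with any of 6 and *Klf15* with any of 5. Of the genotype calls, *Rragd* was lost with any of 7, *Slc38a10* with any of 4, *Cdkn1a* with any of 3 and *Pdk4* with any of 2, and *Castor2* was kept throughout.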

How the data were processed

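Muscle RNA of 48 mice, 2 per group in 24 groups, was sequenced. The authors deposited FPKM values and, in tables of pairwise comparisons, raw read counts per gene. Alignment is described in their methods with STAR and HTSeq, whereas the submitters' processing notes name HISAT2 2.0.5, DESeq2 1.20.0 and mm39, and this could not be settled here. Columns of the authors' own comparisons (group means, size-factor counts, fold changes and p-values) were not used. Genes left out of a comparison table had their count recovered from the deposited FPKM and gene length: 28541 values above 0, all whole within 0.01 and each 1 read, at most 0.00642% of a library. No column belonged to another sample.

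Counts were fitted with edgeR 4.0.16 in R 4.3.3 (filterByExpr, TMM, 1 coefficient per group, quasi-likelihood test, 24 residual degrees of freedom, Benjamini-Hochberg over 15637 genes, threshold 0.05). Averages over times, single times, genotype and the 24 h sinusoid were contrasts of that fit. Within arms a sinusoid was fitted to the deposited FPKM by least squares (F test, 9 residual degrees of freedom, 18 for a difference). Scripts were tested on simulated data. DESeq2 1.42.0, RLE size factors, no filter, a replicate block, left-out libraries and left-out times were alternatives. The 9 genes, the pathway lists and the markers were chosen with earlier results of these data known. Named genes were the 9, some of the 3 nearest genes found for each, and list genes called for tumor or genotype. In edgeR a difference was set against the spread between the mice of a group, with information shared over genes. In the FPKM fits the residual also holds departures of the time means from a sinusoid. Counts from edgeR at an unadjusted p under 0.05 are given without the share over all genes, and no excess is read from them. Promoters are from RefSeq.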

Additional observations from a re-analysis of the deposited data

How the results depend on the processing

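The *Slc3a2* difference in WT muscle kept its sign and its call with RLE size factors, without a filter, with DESeq2 (adjusted p = 0.000734), with the replicate block (0.24, adjusted p = 0.00531) and with any 1 library left out (0.21 to 0.27, adjusted p 0.0019 to 0.0236), but 0 of 9 genes were called without CT38. The block moved no count of edgeR calls by over 1.5 times. In the FPKM fit it left 1 gene past the threshold in WT KPC muscle. Mice share only a number: over 276 pairs of groups the correlation of deviations had a median of -0.0038 and ranged from -0.32 to 0.23. Without a filter on low counts, *Glul* joined the calls in every tumor and genotype comparison except the difference between genotypes. The count was then 2 in WT and 1 in FoxP1SkmKO muscle for the tumor, 1 for genotype in controls and 1 in KPC mice, and 3 of 54 at single times in each genotype. Without the filter the lowest edgeR adjusted p of the 9 genes for rhythm was 6.75e-266, against 2.44e-12 in the reported fit. The calls made without a filter are therefore to be read with caution, and the cause was not tested. DESeq2 called 1 of 54 at single times in WT with 48 libraries and 1 of 54 in FoxP1SkmKO muscle with 4.

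Within arms, an adjusted p of 0.05 left 2 rhythmic genes in WT controls, 1 in WT KPC muscle and 0 in FoxP1SkmKO KPC muscle. A mean of at least 1 FPKM with adjustment, chosen after seeing the data, left 1 and 0 in the latter arms. Leaving out CT26, also chosen then, left 2, 1 and 1. With 1 library left out the counts ran from 1 to 2 in WT KPC and from 1 to 3 in FoxP1SkmKO KPC muscle. For genotype they ran from 0 to 1 in KPC mice, through *Glul* without WT KPC CT30 replicate 1 (0.48, adjusted p = 0.0318), and from 0 to 1 in controls, through *Gpt2* without FoxP1SkmKO control CT38 replicate 2 (0.16, adjusted p = 0.0499). The *Bckdk* rhythm over all libraries was lost without a filter (adjusted p = 0.0505).

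Signs changed only among uncalled values near 0. For *Slc38a2*, genotype in controls became 0.00018 (RLE), 0.00019 (DESeq2), 0.00093, 0.011, 0.0046 and 0.015 (without CT22, CT26, CT30 and CT34), and the WT tumor difference -0.0011 (no filter), -0.020, -0.0053 and -0.0099 (without CT18, CT30 and CT34). With a time left out, *Bcat2* in WT became -0.0022 (CT34). In FoxP1SkmKO muscle *Bckdha* became -0.039 (CT18) and -0.012 (CT34), *Bckdhb* -0.0093 (CT18) and *Bckdk* -0.0058 (CT30). The difference between genotypes became -0.076 (CT18) and -0.014 (CT22) for *Bckdhb*, 0.012 (CT26) and 0.022 (CT30) for *Slc7a5*, 0.0060 (CT30) and 0.037 (CT34) for *Bcat2*, -0.036 (CT34) and -0.011 (CT38) for *Gpt2*, and 0.015 (CT38) for *Bckdk*. Genotype became -0.0064 (CT18) and -0.0041 (CT34) for *Bckdk* in controls, and in KPC mice -0.013 (CT18) for *Bckdha* and 0.027 (CT38) for *Bckdk*. With a library left out, the difference between genotypes ran from -0.062 to 0.066 for *Bckdhb*, -0.037 to 0.020 for *Bcat2*, -0.037 to 0.056 for *Gpt2* and -0.17 to 0.097 for *Slc7a5*. Genotype ran from -0.031 to 0.024 for *Slc38a2* in controls and from -0.028 to 0.0093 for *Bckdk* in KPC mice. The tumor difference ran from -0.019 to 0.021 for *Slc38a2* in WT and, in FoxP1SkmKO muscle, from -0.033 to 0.028 for *Bckdha*, -0.00061 to 0.090 for *Gpt2*, -0.015 to 0.18 for *Slc7a5* and -0.010 to 0.12 for *Bckdhb*.

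Over all genes, calls without a filter were 794 for the tumor in WT, 527 in FoxP1SkmKO muscle, 104 for their difference, and 933 and 470 for genotype in controls and KPC mice. DESeq2 gave 161 for the tumor in FoxP1SkmKO muscle and 116 for genotype in KPC mice. The tumor calls numbered 280 in WT and 67 in FoxP1SkmKO muscle in the reported fit, and the genotype calls 538 and 50. Leaving out a time gave as few as 118 (without CT30) for the tumor in WT, 3 (CT18) to 130 (CT22) in FoxP1SkmKO muscle, as few as 268 (CT38) for genotype in controls and 0 (CT30) to 138 (CT22) in KPC mice. Leaving out a library gave 75 to 412, 17 to 228, 303 to 760 and 17 to 198. *Slc7a5* had 21 to 88 reads per library and the widest interval of the 9 genes for the tumor in WT.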
